A study of Mus musculus with 4 samples.

Results

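Alx1 and Alx4, homeobox genes of the frontonasal region, were compared between wild-type and MommeD43 embryos. They are 2 of the 33708 rows of the gene table and were taken from it by symbol. The tissue was the frontonasal prominence (FNP), the part of the embryonic face that forms the forehead, the nose and the middle of the upper lip. FNPs were collected from FVB/NJ mouse embryos at E10.5, all at the 29 somite stage, and 100 ng of total RNA from each was made into stranded poly(A) libraries. There were 2 WT embryos (Smchd1+/+) and 2 MD43 embryos (Smchd1 MommeD43/MommeD43). MommeD43 is a missense allele of Smchd1 that arose in a chemical mutagenesis screen, and it is carried throughout the embryo. SMCHD1 binds chromatin and helps to keep genes silent, on the inactive X chromosome among other places. The labels give 1 female and 1 male WT embryo and 2 male MD43 embryos, although a column name in the supplementary lists gives the second WT embryo as female. If that holds, sex and genotype cannot be told apart, and X- and Y-linked genes are not part of what was analysed here. The second WT and the second MD43 embryo share the number 1664 in their identifiers, read here as that of the mother.

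ALX proteins are transcription factors of the paired class that bind DNA through a homeodomain and end in a short aristaless motif. In the face they are made by the neural crest mesenchyme around the forebrain and nasal pits. ALX1 is needed for the survival of the mesenchyme of the forehead and eye region, and ALX4 takes part in forming the midline of the nose and the skull vault and also patterns the limb bud. Loss of either gene in people gives frontonasal dysplasia, a malformation of the midface. Variants of SMCHD1 are linked to absence of the nose, and the question here was whether the MD43 change goes with another level of these genes in the tissue that forms it. For MD43 itself, the authors measured minimal craniofacial differences in embryos and do not regard it as a model of that malformation.

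Alx1 (ENSMUSG00000036602, GRCm38, chr10:102998707-103030215, minus strand) and Alx4 (ENSMUSG00000040310, chr2:93642384-93681339, plus strand) are protein coding. The homeobox, the 180 bases that encode the homeodomain, is where homeobox genes are most alike and where their reads could be mixed up. It is given here for the longest coding transcript of each gene in GENCODE M21, 5′ to 3′ on the coding strand, with capitals for the bases that Alx1 and Alx4 share.
Alx1: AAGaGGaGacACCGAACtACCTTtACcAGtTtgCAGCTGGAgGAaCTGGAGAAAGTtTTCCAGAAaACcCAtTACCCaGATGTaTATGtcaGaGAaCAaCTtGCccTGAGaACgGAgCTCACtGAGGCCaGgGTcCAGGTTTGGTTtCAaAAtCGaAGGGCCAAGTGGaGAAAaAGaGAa
Alx4: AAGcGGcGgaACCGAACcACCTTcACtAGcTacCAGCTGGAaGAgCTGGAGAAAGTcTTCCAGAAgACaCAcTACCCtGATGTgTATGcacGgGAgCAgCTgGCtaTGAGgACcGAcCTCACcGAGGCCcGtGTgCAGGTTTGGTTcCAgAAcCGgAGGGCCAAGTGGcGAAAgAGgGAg

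The homeoboxes of Alx1 and Alx4 shared 138 of 180 bases (76.7%), and the encoded homeodomains were the same at 55 of 60 residues (91.7%). In both genes an intron divided the homeobox at the same place, after base 138. In Alx1 the first stretch lay in exon 3 (chr10:103025135-103025272) and the other 42 bases in exon 4 (chr10:103022264-103022305), of 5 exons. In Alx4 they lay in exon 2 (chr2:93668528-93668665) and exon 3 (chr2:93675296-93675337), of 3 exons. Reads were 75 bases long, and over the 10 annotated transcripts of Alx1 and Alx4 the longest run identical between the genes was 19 bases. No stretch of 75 bases was shared, so a perfectly matching read of one gene did not match the other.

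The unit of the values was log2 RPKM, the log2 of reads per kb of transcript scaled to the size of the library, and the table held 1 value per genotype in which the authors had merged both libraries. It was listed as the authors' value for the genotype and has no spread between embryos, so no difference below was tested against replicates and none has a p-value. Read numbers were scaled from the constant value of genes without reads, which was taken as 0.9 reads. They stand for the geometric mean of the 2 libraries of a genotype. The implied depth per library was 16055882 reads in WT and 22328791 in MD43. The SE and the 95% intervals come from these reads, are the smallest that counting allows and leave out the variation between embryos. Differences are MD43 minus WT on the log2 scale. Genes were compared where the mean of both genotypes was at least 0 log2 RPKM, which held for 12224 genes, Alx1 and Alx4 included. Of all genes compared, 47.1% had a lower value in MD43, the share to set beside the counts of lower genes below. In this bulk tissue, fewer cells of a type and less RNA per cell cannot be told apart.

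Alx4 had practically the same level in both genotypes. Its value was 4.09 log2 RPKM (17.0 RPKM, 1926 reads) in WT and 4.09 log2 RPKM (17.1 RPKM, 2693 reads) in MD43. The difference was 0.01 ± 0.03 (counting SE), with a counting interval of -0.05 to 0.07, that is, 0.965 to 1.05 times the WT level. Among the genes compared, 96.5% differed by at least as much between the genotypes in one direction or the other. Counting error of this size leaves room for a change of a few percent, and the room left by variation between embryos is unknown.

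Alx1 was slightly higher in MD43. It had 3.08 log2 RPKM (8.45 RPKM, 781 reads) in WT and 3.25 log2 RPKM (9.53 RPKM, 1224 reads) in MD43. The difference was 0.17 ± 0.05 (counting SE), or 1.13 times the WT level, with a counting interval of 1.06 to 1.20 times. This is more than the smallest counting error would give, but 37.9% of the genes compared differed by at least as much. The quartiles of all differences were -0.12 and 0.14. Alx1 thus lay above the upper quartile, with 80.9% of the genes compared at a lower difference.

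Neither Alx1 nor Alx4 was 2-fold different (0 of 2), where 0.663% of the genes compared were at least 2-fold lower in MD43 and 0.213% at least 2-fold higher. Smchd1, which carries the mutation, had 3.31 log2 RPKM in WT and 3.30 in MD43, a difference of -0.01 ± 0.02 (counting SE). The missense change itself does not show in a read count, so this value does not check the genotypes of the libraries.

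**Figure D1:**
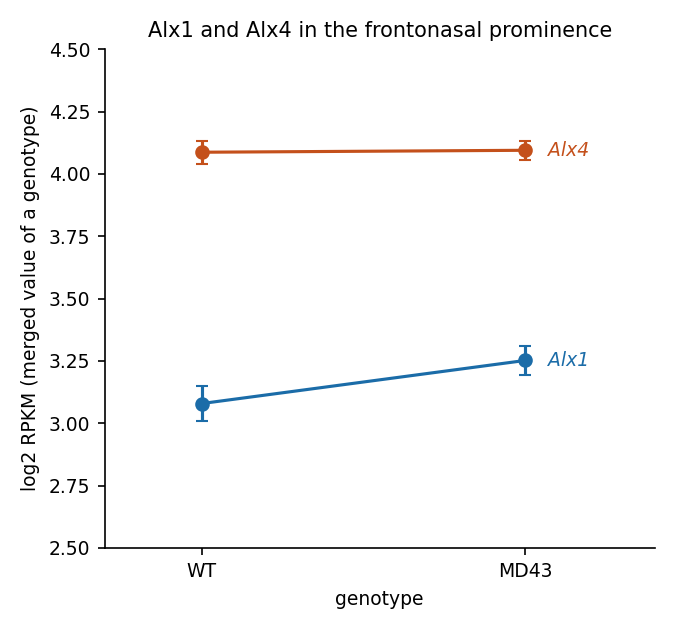
Levels of Alx1 and Alx4 (log2 RPKM, vertical axis) in WT and MD43. Each point is the authors' merged value of a genotype and the bars are 95% counting intervals without variation between embryos. Alx4 is level at 4.09 and Alx1 moves from 3.08 to 3.25.

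**Figure D2:**
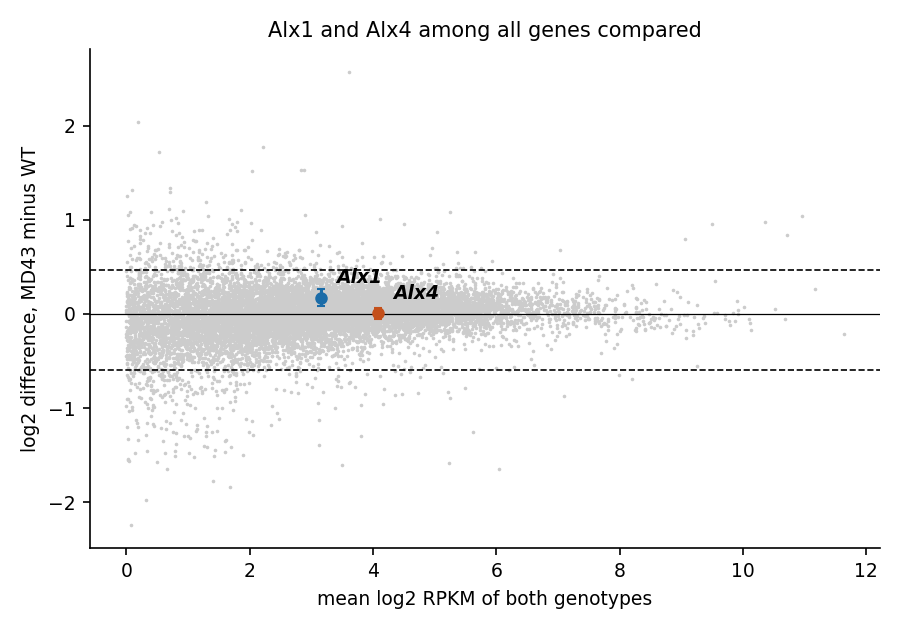
Log2 difference between MD43 and WT (vertical axis) against the mean log2 RPKM of both genotypes (horizontal axis) for the 12224 genes compared (grey), with Alx1 and Alx4 and their 95% counting intervals. The dashed lines at -0.59 and 0.46 hold the middle 95% of the genes, and Alx1 and Alx4 lie between them.

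Alx4 was above Alx1 in both genotypes, in log2 RPKM and by more than their counting error. The order depends on the length used. The deposited values fit a length that joins all annotated exons of a gene, which is 7060 bases for Alx4 and 5756 for Alx1. For Alx1 this is much longer than its longest coding transcript (2689 bases), whereas for Alx4 (7056) the lengths are nearly equal. Per kb of the longest coding transcript, a choice made after the data were seen, Alx1 had 4.18 log2 RPKM in WT and 4.35 in MD43, above Alx4 with 4.09 and 4.10. Which of Alx1 and Alx4 is the more abundant transcript is therefore not settled by the table. The difference between the genotypes does not depend on the length.

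Alx1 and Alx4 belonged to the abundant paired-class genes of the tissue. This class holds the homeobox genes with an ALX-like homeodomain, and 29 of those considered here had a row. By the mean log2 RPKM of both genotypes, the order among them began with Otx2, a factor of forebrain and eye, Alx4 (4.09), Prrx2 (3.77), Otx1 (3.76), Prrx1 (3.23), Pax6 (3.20) and Alx1 (3.17). Prrx1 and Prrx2 mark facial mesenchyme like the Alx genes, and Pax6 marks forebrain, eye and placode. In these means, Prrx2 and Otx1, Prrx1 and Pax6, and Pax6 and Alx1 did not differ beyond the 95% counting interval. With the length of all exons, Alx1 lay below Prrx1 and Pax6 in WT (3.08 against 3.37 and 3.38) and above both in MD43 (3.25 against 3.08 and 3.03). This crossing depends on the length used. Per kb of the longest coding transcript, Alx1 was listed above Prrx1 in WT (4.18 against 4.13) and in MD43 (4.35 against 3.84). By that length it was below Pax6 in both genotypes (4.18 against 4.78 in WT, 4.35 against 4.43 in MD43). Alx1 then moved from place 7 to 4 among these genes and Alx4 from place 2 to 6. Counting error was not weighed for the order by that length, where the means of Alx1 and Prrx2 lay close (4.26 and 4.22).

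**Figure D3:**
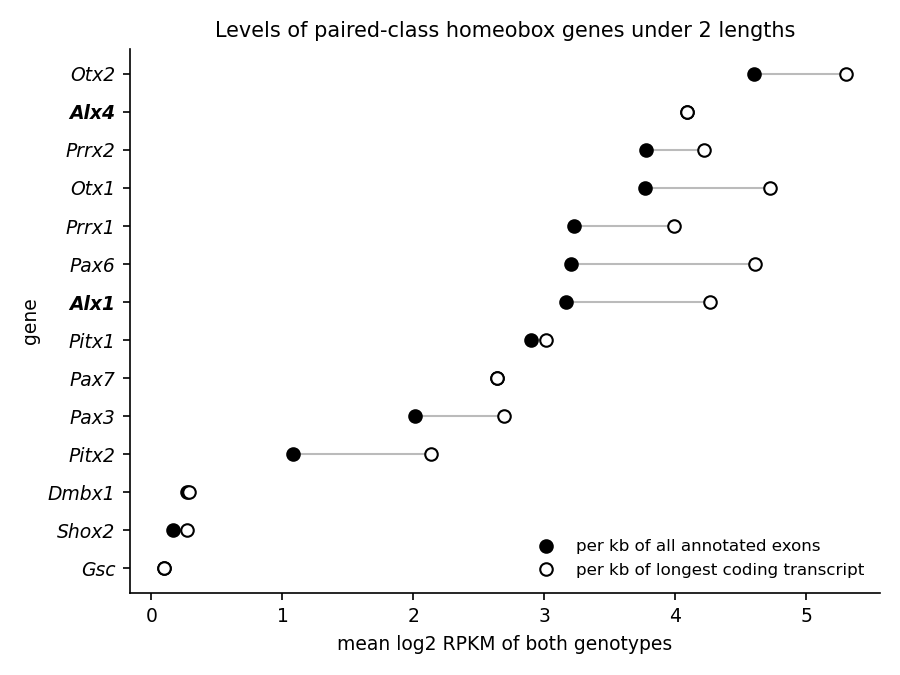
Mean log2 RPKM of both genotypes (horizontal axis) for the 14 paired-class homeobox genes considered here with a mean of at least 0. Filled points use all annotated exons as the length and open points the longest coding transcript. Alx4 stays at 4.09, while Alx1 moves from 3.17 to 4.26.

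Of the other paired-class genes, 27 had a row and 12 were compared, 5 of them lower and 7 higher in MD43, with a median difference of 0.16 beside 0.01 over all genes compared. Without the filter on level the median of the 27 was -0.35. At least 2-fold higher were Gsc (1.32 ± 0.31), a factor of jaw mesenchyme with 13.8 reads in WT and 47.9 in MD43, and Pitx1 (1.05 ± 0.08), a factor of oral ectoderm and jaw with 221 and 636 reads. None was 2-fold lower, and the lowest was Otx2 (-0.62 ± 0.03). Over all genes compared, 0.213% were at least 2-fold higher and 0.663% at least 2-fold lower. Among the 15 genes under the level for comparison, 12 were listed lower in MD43, and 8 had at most 3 reads in both genotypes. A gene with no read at all is listed at -0.48 because the MD43 libraries were deeper. Others had reads to compare, among them Rax, a factor of eye and hypothalamus, with 79.4 reads in WT and 24.5 in MD43 (-2.17 ± 0.24), and Otp, a hypothalamic factor, with 33.9 and 15.9 (-1.57 ± 0.31). Hesx1 went the other way, with 2.32 reads in WT and 12.4 in MD43 (1.95 ± 0.73).

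The factors that share the frontonasal mesenchyme with Alx1 and Alx4 were on the whole slightly lower in MD43. Of 17 genes, all compared, 13 were lower and 4 higher, with a median of -0.17, beside 47.1% lower over all genes compared. The most abundant was Msx1, a target of BMP signals (-0.17 ± 0.03), with 5.28 log2 RPKM in WT and 5.11 in MD43. Foxd1, a forkhead factor, was the only one at least 2-fold lower (-1.44 ± 0.09), going from 364 reads in WT to 186 in MD43. Over all genes compared, 0.663% were at least 2-fold lower. The highest difference was that of Meis2, a homeobox factor of facial mesenchyme (0.18 ± 0.04), close to that of Alx1.

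The same held for markers of crest mesenchyme, which check the tissue. All 6 were well above the level for comparison, from 5.11 to 38.8 RPKM in WT. From Twist1 (-0.39 ± 0.05) to Tfap2b (0.02 ± 0.04) their median was -0.25, and 5 of the 6 were lower in MD43. Their summed level was 115 RPKM in WT and 98.0 in MD43. Alx1 had a higher difference than all 6 markers and Alx4 than 5 of them. Twist1, Msx1, Tfap2b and Pdgfra also stand in the list of mesenchyme factors, and Prrx1 and Prrx2 in that of the paired class, so the lists are not separate.

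Signals that reach this mesenchyme were then described. Hedgehog genes, which pattern the midface from forebrain and ectoderm, had a median of -0.34, with 5 of 7 compared genes lower. The median was -0.17 when the mean level had to be at least 1 log2 RPKM, and the summed level of the list was 105 RPKM in WT and 108 in MD43. Gli1, a direct readout of the pathway, was lowest of those compared (-0.66 ± 0.06), with 3.09 log2 RPKM in WT and 2.43 in MD43. Under the level for comparison, Hhip had -0.73 ± 0.19, on 63.0 reads in WT and 52.6 in MD43. Smo, the signal transducer and most abundant gene of the list, had a difference of 0.16 ± 0.02. Gli3, mostly a repressor of the pathway, had the highest (0.32 ± 0.02).

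FGF signalling genes had a median of -0.20, with 8 of 10 lower. Among them were Fgf8, a growth signal of the nasal pits (-0.34 ± 0.07), and the most abundant, Dusp6, a feedback inhibitor (-0.18 ± 0.03). The ends of the list were Fgf18 (-0.67 ± 0.23), another ligand, and Etv5, a target factor (0.18 ± 0.04). BMP, WNT and PDGF signals had a median of 0.22, with 7 of 8 higher. The ligand Pdgfa had the highest difference (0.45 ± 0.05) and the BMP antagonist Nog the lowest (-0.27 ± 0.12).

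Genes of retinoic acid signalling had a median of 0.03, with 3 of 6 compared genes on either side, but Aldh1a3, the enzyme that makes retinoic acid in the nasal and eye ectoderm, stood out. It had 4.03 log2 RPKM (1211 reads) in WT and 4.99 (3275 reads) in MD43, a difference of 0.96 ± 0.03 (counting SE). It was the most abundant gene of the list, and Rarb, a receptor gene, had the lowest difference among those compared (-0.18 ± 0.06). No compared gene of the hedgehog, FGF, retinoic acid or BMP, WNT and PDGF lists was 2-fold different. With 0.663% of all genes compared at least 2-fold lower and 0.213% higher, this is no result about these lists. Under the level for comparison, Aldh1a2, another enzyme of retinoic acid synthesis, had 4.47 reads in WT and none in MD43. Cyp26c1 of the same list went the other way, from 5.29 reads in WT to 11.8 in MD43 (0.69 ± 0.53).

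**Figure D4:**
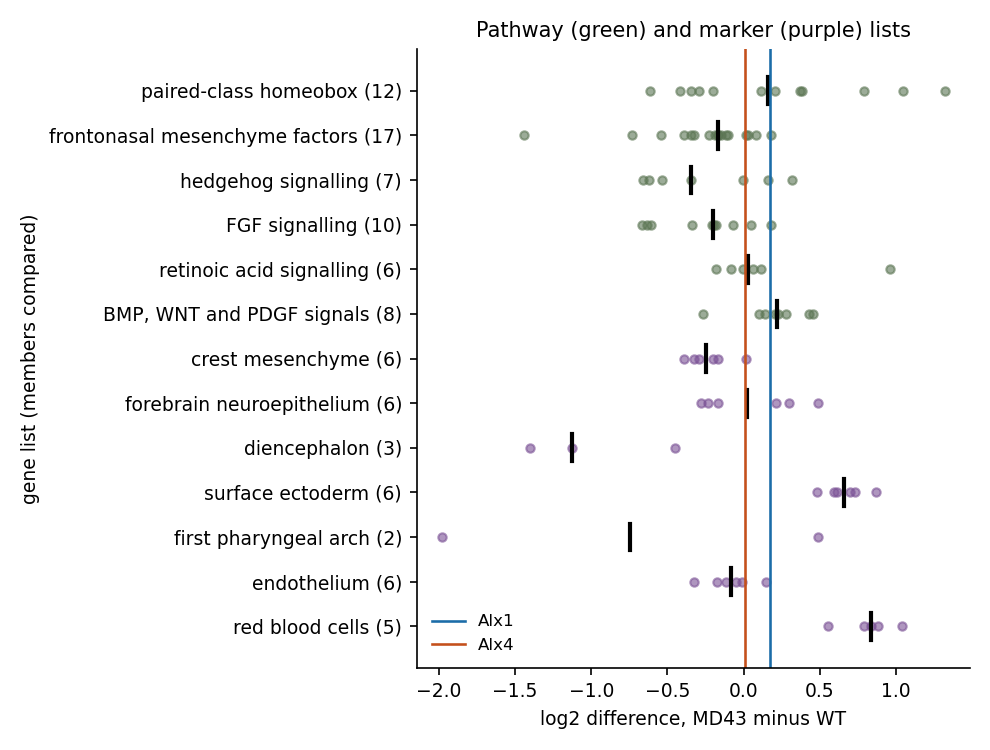
Log2 difference between MD43 and WT (horizontal axis) of each compared gene in the pathway lists (green) and marker lists (purple), with the number compared in brackets and a black bar at the median. The vertical lines give Alx4 (0.01) and Alx1 (0.17). Of the crest mesenchyme markers, 5 lie left of Alx4, and all 6 surface ectoderm markers lie right of Alx1.

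Markers of other cell types differed between the merged libraries, and their part in the Alx values was not tested. Surface ectoderm markers were higher in MD43 in 6 of 6 genes, from Krt18 (0.49) to Cldn6 (0.87), and summed to 113 RPKM in WT and 179 in MD43. Red blood cell markers were higher in 5 of 5, with Hbb-bh1, an embryonic globin, at 1.04, and their sum went from 3056 to 5810 RPKM. The diencephalon list was lower in 3 of 3 compared genes and summed to 31.3 and 17.8 RPKM. Its members Dbx1 (-1.40) and Lhx5 (-1.12) were at least 2-fold lower, as were 0.663% of all genes compared, and the most abundant, Nkx2-1, had -0.45. Forebrain markers, as abundant as those of crest mesenchyme, were split 3 to 3, from Six3 (-0.28) to Lhx2 (0.49), with sums of 134 and 154 RPKM. Endothelial markers were lower in 5 of 6, from Kdr (-0.33 ± 0.08) to Tek (0.15 ± 0.15), with sums of 14.0 and 13.1 RPKM. The most abundant of them, Cldn5, had -0.11 ± 0.12. Of the first pharyngeal arch list, Hand1 and Hand2 had at most 3 reads in both genotypes, and the 2 genes compared were Lhx8 (-1.98) and Dlx3 (0.49). Under the level for comparison, Lhx6 (-1.55 ± 0.22) went from 69.8 reads in WT to 33.2 in MD43, and Barx1 (-1.30 ± 0.30) from 31.9 to 18.0. That list summed to 9.44 and 7.97 RPKM. The 4 head mesoderm markers were all under the level for comparison and summed to 0.425 and 0.442 RPKM. Of these, Myf5 was listed higher, with no reads in WT and 7.21 in MD43, and the others were listed lower.

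The genes around Alx1 and Alx4 were examined because SMCHD1 acts on stretches of chromatin. Of the 8 genes within 500 kb of Alx1, 2 were compared and none of these was 2-fold different, which with 0.663% of all genes compared 2-fold lower and 0.213% higher is no result about this region. One was Gm17028, a lincRNA that overlaps the start of Alx1 on the same strand (chr10:103029479-103030344). It shares 243 bases of exon with Alx1, so reads there cannot be told apart. These are 4.22% of the Alx1 exons (5756 bases) but a much larger part of the 704 exon bases of Gm17028. How far its value comes from Alx1 reads was not tested. Its difference was 0.38 ± 0.18, on 48.1 reads in WT and 86.8 in MD43. The other was Slc6a15, a transporter gene (-0.48 ± 0.09). The coding genes next to Alx1 had few reads, with 23.9 in WT and 60.3 in MD43 for Rassf9 (0.86 ± 0.25) and 22.0 and 19.0 for Lrriq1 (-0.69 ± 0.32).

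Of the 14 genes within 500 kb of Alx4, 10 were compared and none of these was 2-fold different, again no more than the share over all genes compared would give. Ext2, which encodes an enzyme of heparan sulfate synthesis, overlaps Alx4 on the opposite strand but shares 0 bases of exon with it. It had 2.58 log2 RPKM in WT and 2.80 in MD43, a difference of 0.22 ± 0.05 (counting SE). The next coding gene on the other side, Cd82, had -0.19 ± 0.17. Compared neighbours of Alx4 lay on both sides of 0. So did the 2 of Alx1, but the higher of them, Gm17028, shares exon with Alx1 and is not a separate value.

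**Figure D5:**
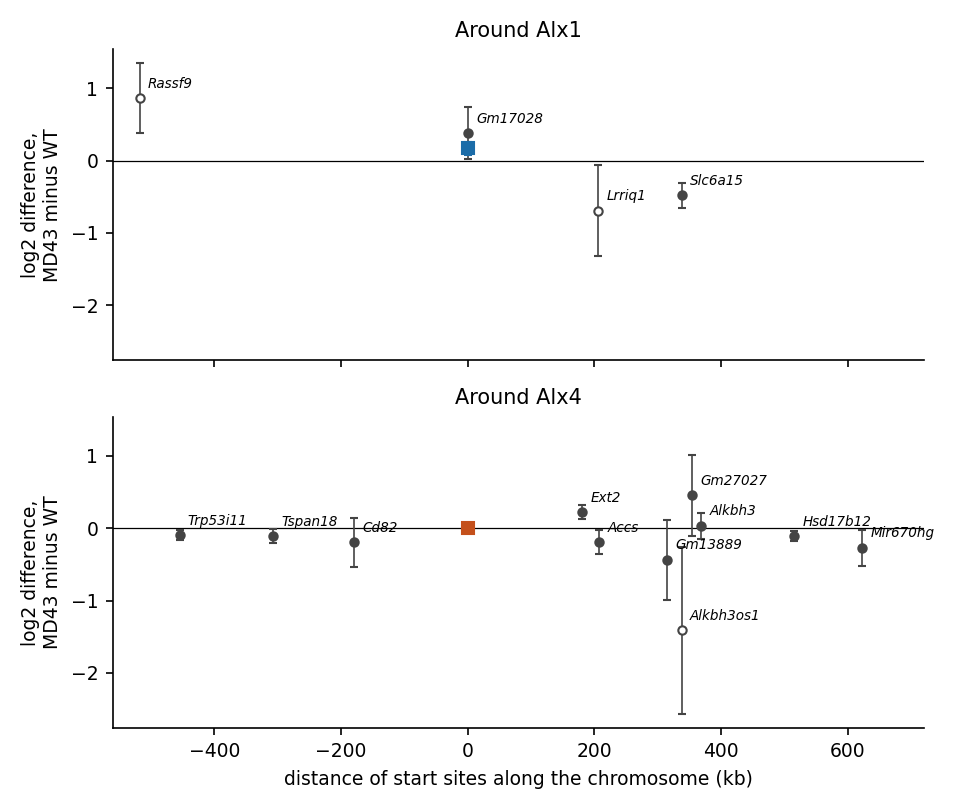
Log2 difference between MD43 and WT (vertical axis) of genes within 500 kb of Alx1 (top) and Alx4 (bottom), by the distance between start sites in kb (horizontal axis). Squares are Alx1 and Alx4, filled points are genes with a mean of at least 0 log2 RPKM, open points are lower ones, genes with at most 3 reads in both genotypes are left out, and bars are 95% counting intervals. The compared neighbours of Alx4 lie between -0.44 and 0.45.

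The coding genes most like Alx1 in their pair of log2 RPKM values, out of 20499 coding genes, were Mgme1 (distance 0.014), Exosc7 (0.014) and Tdg (0.018). For Alx4 they were Plpp3 (0.007), Rxrb (0.007) and Glis2 (0.014). The distance is Euclidean over only 2 values, WT and MD43, and many genes have such a pair.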

How the data were processed

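The 4 FNP libraries were grouped by the genotype in their labels. The authors trimmed reads with Trim Galore 0.4.4, mapped them with HISAT2 2.0.5 to GRCm38.p6 (versions from the submitters' processing notes) and quantified them in SeqMonk. The deposited table gives log2 RPKM values, which the authors scaled to library size and transcript length and merged to 1 column per genotype. Its log2 fold change, mean expression and FDR (a q-value, listed for 56 genes) columns hold the authors' comparison and were not used. Strand use in the counting is not given in the sources used here.

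Here the MD43 column minus the WT column was computed (Python 3.11.15, pandas 2.3.3). GENCODE M21 matched 33101 rows by symbol and position. Genes without reads share 1 difference (log2 -0.48), which genes with equal reads in both genotypes also have. It was found in 12564 matched rows, and in 97.9% of them the value plus log2 exon length is 1 constant. With 0.9 reads standing for none, products of the reads of 2 libraries between 100 and 1000 were whole, or 0.9 times whole, within 0.02 in 99.7% (WT) and 99.8% (MD43). The recovery was run on simulated data made with the same 0.9 reads, exon lengths and depths, so this does not check those settings. No test of genotypes was possible from 1 merged value per genotype. The members and lists were chosen with earlier results of these data known. Some genes of the lists are not reported here, and the counts and medians leave them out. Named genes are Alx1, Alx4, Smchd1, list members at least 2-fold different or at the ends or top of their list, adjoining coding genes and the 3 nearest in level. Fgf8, Gm17028, Slc6a15, genes under the level for comparison and those named only for their level fall outside it and were named after their values were seen. Alternatives were pseudocounts of 0.1 and 1 RPKM, centring, other filters, and a GC content and length correction.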

Additional observations from a re-analysis of the deposited data

How the results depend on the processing

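The difference of Alx1 (0.17) kept its direction and stayed within its counting interval after adding 0.1 or 1 RPKM, centring on the median gene, or correcting for GC content and length (0.16 to 0.20). That of Alx4 (0.01) also stayed within it but lay on the other side of 0 after centring (-0.01) and the correction (-0.04). Of the 52 alternatives for the 13 list medians, 44 moved them by less than the 95% counting error of a typical member. Without a filter, the paired-class median was -0.35 in place of 0.16, that of hedgehog genes -0.44 and that of the diencephalon list -1.26. Under a stricter filter (a mean of 1 log2 RPKM or more), the hedgehog median was -0.17 and that of the first arch list 0.49, which is Dlx3 alone. A pseudocount of 1 RPKM gave -0.985 for the diencephalon, -0.34 for the first arch and 0.79 for red blood cells. The counts of genes at least 2-fold lower (81) and higher (26) in MD43 were 1486 and 650 without a filter, 42 and 13 under the stricter filter, 22 and 9 with the pseudocount of 1 RPKM, and 312 and 131 with at least 10 reads on average, a filter chosen after the data were seen. The head mesoderm list had no value under the filter. No paired analysis was possible because both libraries of a genotype were merged to 1 value, so leaving out single libraries could not be run either, and whether 1 embryo decides the Alx1 value is unknown.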
